A study of Mus musculus with 16 samples.

Results

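The genes described here are the IL-33 receptor Il1rl1 (also called ST2), the shared coreceptor Il1rap, the IL-18 receptor chains Il18r1 and Il18rap, the IL-1 receptor Il1r1, the decoy receptor Il1r2, the inhibitory receptor Sigirr and the adaptor Myd88. They were chosen by name, as 8 of the 51912 genes in the count table, and all 8 passed the filter on low counts. Bulk mRNA-Seq was performed on mouse lung group 2 innate lymphoid cells (ILC2s), tissue-resident lymphocytes that secrete type 2 cytokines, from WT and Pac1-/- mice. Pac1 encodes a phosphatase whose official symbol is Dusp2, and the methods of the study give the C57BL/6J background for the Pac1-/- mice and an age of 6 to 8 weeks for its mice. ILC2s of each genotype received 1 of 4 treatments. Every library had IL-7, alone in the group called IL-7 below. The group called IL-33 received IL-33 as well, and the groups called CGRP and NMU received that neuropeptide on top of both cytokines. Treatment lasted 4 hours, and about 500 sorted ILC2s made up each library. The culture methods of the study give 100 ng/mL for IL-7 and IL-33 and 500 ng/mL for the neuropeptides CGRP and NMU. Each of the 8 groups had 2 libraries, which gives 4 libraries per treatment and 8 per genotype. The labels do not say whether the 2 libraries of a group came from separate mice or cultures, so the P values measure only the spread between these libraries, which may be technical. The same culture methods describe expansion of sorted ILC2s in IL-2 and IL-7 for 1 to 2 weeks before stimulation, and the sources used here do not say whether the cells of these libraries were expanded in this way. Whether the Pac1 deletion was present in all cells and whether ST2 itself was used to sort the cells were also not given there. The study used a separate mouse line, with floxed Pac1, to delete the gene selectively in ILC2s.

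IL-33 is an alarmin released by damaged barrier cells, and ILC2s sense it through a receptor made of the ST2 chain, which binds IL-33, and the IL-1 receptor accessory protein encoded by Il1rap. IL-18 is sensed in the same way by Il18r1, its binding chain, and Il18rap, its accessory chain. The cytoplasmic TIR domains of these receptors recruit MyD88, which assembles IRAK kinases and TRAF6 and leads to NF-κB and MAP kinase signaling. Il1r2 binds IL-1 without signaling, and Sigirr dampens signaling by other family members. CGRP and NMU are neuropeptides that act on ILC2s through receptors coupled to G proteins.

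The libraries held 6764992 to 15963357 counts, so that 3 counts corresponded to 0.171 to 0.462 CPM, the counts in each 1000000 counts after TMM scaling. The targeted gene Dusp2 was at 0 counts in all 8 Pac1-/- libraries and also in 6 of the 8 WT libraries, with 57 counts in a WT IL-7 library and 29 in a WT NMU library, so it checks the labels only weakly. All 14 ILC2 markers examined were detected, and their summed level lay between 11024 and 15269 CPM. Cd8a was at 0 in every library and Cd4 and Cd5 did not pass 0.507 and 0.129 CPM. In contrast, Cd3g and Cd3d exceeded 3 counts in all 16 libraries and reached 256 and 103 CPM, and Cd3e reached 8.99 CPM. B cell markers summed to 271 and 281 CPM in the Pac1-/- CGRP libraries and to at most 78.1 CPM elsewhere. Lung epithelial markers summed to 174 and 308 CPM in the WT NMU libraries and to at most 83.4 CPM elsewhere. Replicates of a group differed more than 4-fold for 28.8% of pairs among genes at 1 to 10 CPM and for 12.5% at 10 to 50 CPM. The share was 1.41% among genes at 50 to 200 CPM and 0.0875% at 200 CPM or more. These percentages used scaled CPM, whereas the 8 genes were compared in raw counts, so the 2 measures differ. In raw counts Il1rl1 and Il18rap had no group whose replicates were more than 4-fold apart. Il18r1 had 1 such group of 8, Il1r1 had 3, Myd88 and Sigirr had 4 each, Il1rap had 6 and Il1r2 had 7. After scaling some of these pairs were less than 4-fold apart, as for Myd88 at 79.3 and 26.7 CPM in the Pac1-/- IL-33 libraries.

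Il1rl1 was by far the most abundant of these transcripts per length of gene. On the scale of CPM per kilobase of merged exons, averaged over the 16 libraries, Il1rl1 stood at 120.0, followed by Il18rap at 15.7, Myd88 at 10.4, Il1r2 at 4.93, Il18r1 at 3.17, Sigirr at 2.17, Il1rap at 0.737 and Il1r1 at 0.0998. Il1rap, the partner that ST2 needs in order to signal, thus stood far below Il1rl1 on this scale. Divided by the longest transcript in place of the merged exons, Il1rap stood at 1.85 and Il18rap at 21.7, and the order of the 8 means was the same. The place of Il1r2 depends on the use of means. Its median per kilobase of merged exons was 0.517, below 2.11 for Il18r1 and 1.65 for Sigirr.

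Il1r2, Il1r1, Il1rl1, Il18r1 and Il18rap lie in the same orientation within 477627 bases of chromosome 1 (GRCm38), together with Il1rl2, the IL-36 receptor. Il1rl1 (ENSMUSG00000026069) occupies chr1:40429570-40465415, and Il18r1 (ENSMUSG00000026070) begins 136 bases after its end, at chr1:40465552-40500854. Despite this proximity the levels of adjacent genes were far apart, with 836 ± 86.7 CPM (SD, n = 4) for Il1rl1 and 32.5 ± 12.4 CPM for Il18r1 in IL-7 libraries. The nearest tested genes outside the cluster were Map4k4 and Slc9a2. The other 3 genes lie elsewhere, Il1rap at chr16:26581704-26730117, Sigirr at chr7:141091175-141100572 and Myd88 at chr9:119335934-119341411.

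**Figure D1:**
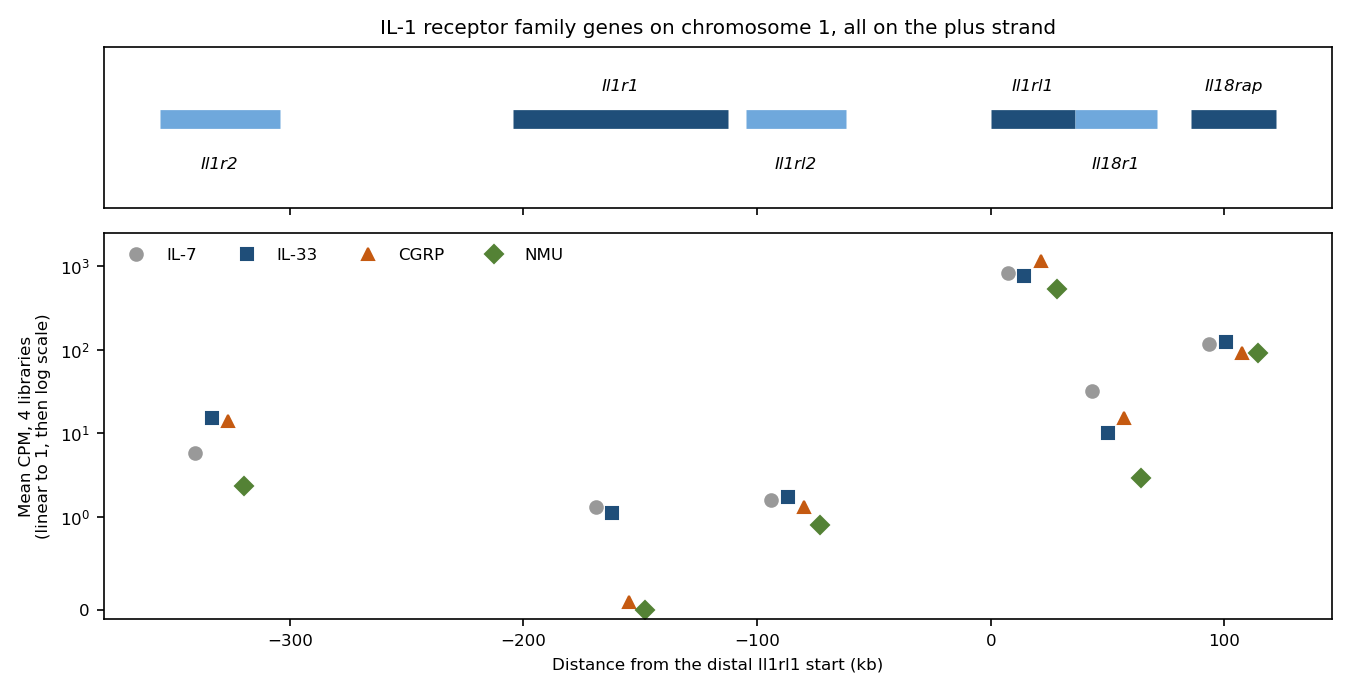
Top, the 6 IL-1 receptor family genes of the chromosome 1 cluster drawn to scale by distance in kb from the distal Il1rl1 start; bottom, mean CPM of the 4 libraries of each treatment, on an axis that is linear to 1 and logarithmic above. Il1rl1 stands between 538 and 1166 CPM in the 4 treatments, while its neighbour Il18r1 stands between 2.97 and 32.5 CPM.

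Il1rl1 has a pair of RefSeq start sites in the GRCm38.p6 table, a distal one that coincides with the start of the gene and a proximal one inside it, and the 250 bases before each are shown because Il1rl1 carried the clearest difference between treatments. Capitals mark every match to GATAA, the core bound by GATA factors such as GATA3, on either strand, and to TGACG, the core of the cAMP response element, on either strand. The distal stretch is chr1:40429320-40429569 and the proximal one chr1:40439379-40439628, both on the plus strand.
Il1rl1 distal: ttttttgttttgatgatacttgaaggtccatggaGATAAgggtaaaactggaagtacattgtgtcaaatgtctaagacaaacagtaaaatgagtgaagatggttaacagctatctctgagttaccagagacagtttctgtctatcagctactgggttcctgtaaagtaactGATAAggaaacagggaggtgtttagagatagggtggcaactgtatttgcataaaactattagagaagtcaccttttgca
Il1rl1 proximal: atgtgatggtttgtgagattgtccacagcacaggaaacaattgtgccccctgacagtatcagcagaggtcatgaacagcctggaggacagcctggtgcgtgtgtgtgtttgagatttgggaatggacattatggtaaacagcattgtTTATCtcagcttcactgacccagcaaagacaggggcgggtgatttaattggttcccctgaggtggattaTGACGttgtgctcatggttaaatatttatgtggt
The distal stretch held 2 GATAA matches, 216 and 79 bases before the start, and no TGACG. The proximal stretch held 1 GATAA match on the minus strand, 103 bases before the start, and 1 TGACG match 34 bases before it. Neither held TGANTCA, the AP-1 site. Searched from 250 bases before to 50 after the start on both strands, GATAA was found in 25.4% of 32841 RefSeq promoters, TGACG in 20.8% and TGANTCA in 7.81%. Counts per gene do not tell which start was used. Of the 8 genes 7 had an entry in this table, and the promoter of Myd88 held none of the 3 motifs.

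Of the comparisons between treatments, those with CGRP were the ones in which any of the 8 genes passed the test, as the plot of fold changes shows. A gene was called when its fold change exceeded 1.5 and its P value in the quasi-likelihood test of edgeR, adjusted by Benjamini and Hochberg's method over 14979 genes, was under 0.05. For CGRP against IL-33, 1 of the 8 genes was called, Myd88, which was lower, where 2.76% of all genes tested were called and 1.11% were called lower. For CGRP against NMU, 2 were called, Il1rl1 higher and Myd88 lower, where 5.47% of all genes were called, 2.63% higher and 2.84% lower. None of the 8 was called for IL-33 against IL-7, where 0.0334% of all genes were, or for NMU against IL-33, where 0.187% were. The CGRP libraries entered both comparisons with calls, so the comparisons are not independent of each other. In bulk samples, fewer cells that express a gene and less RNA of it per cell cannot be told apart.

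**Figure D2:**
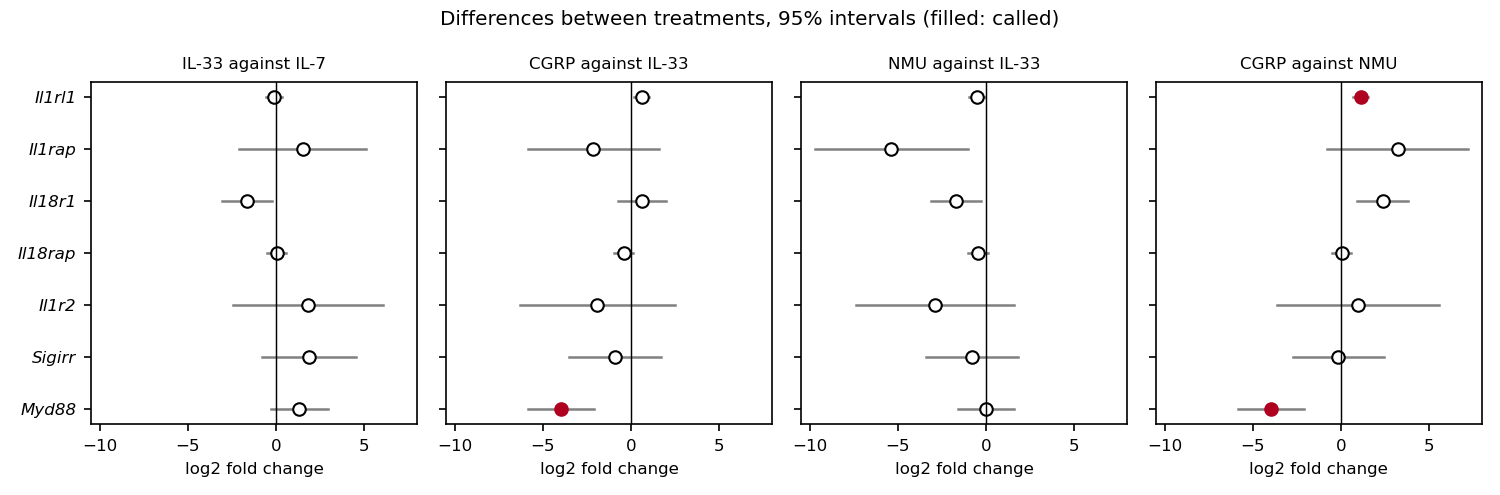
Log2 fold changes of 7 of the genes in the 4 comparisons between treatments, each from 4 libraries against 4, with 95% intervals as lines and called genes filled; Il1r1 is left out because several groups were at 0. The filled points are Myd88 at -3.98 in both comparisons with CGRP and Il1rl1 at 1.11 in CGRP against NMU, and the intervals of Il1rl1 and Il18rap are the narrowest.

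Il1rl1 was highest with CGRP and lowest with NMU. With CGRP, the WT libraries stood at 1179 and 1304 CPM and the Pac1-/- libraries at 999.7 and 1180 CPM. With NMU, the WT libraries stood at 517 and 528 CPM and the Pac1-/- libraries at 530.5 and 578 CPM. All 4 CGRP libraries thus exceeded all 4 NMU libraries, a separation that 13.3% of all genes tested showed in this comparison. With IL-7 the values were 843 and 956 CPM in WT and 778 and 767 CPM in Pac1-/- ILC2s. With IL-33 they were 606 and 1017 CPM in WT and 521 and 929.7 CPM in Pac1-/- ILC2s, so that the replicates of either genotype were further apart than in the other treatments. The means were 1166 ± 125 CPM for CGRP, 836 ± 86.7 for IL-7, 768 ± 241 for IL-33 and 538 ± 26.8 for NMU (SD, n = 4 each).

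Il1rl1 was higher with CGRP than with NMU by 1.11 on the log2 scale (SE 0.204, adjusted P = 0.0067, edgeR's quasi-likelihood test). Its libraries were also on the high side with CGRP against IL-33, by 0.60 on the log2 scale with a 95% interval of 0.16 to 1.04, but this did not pass the test (SE 0.202, edgeR adjusted P = 0.149). It was called there by DESeq2 (0.64 on the log2 scale, adjusted P = 0.0295), which called 7.77% of all genes, and by edgeR without Pac1-/- IL-33 replicate 2 (0.85, adjusted P = 0.0184). For NMU against IL-33 the log2 difference was -0.51 (95% interval -0.95 to -0.08, edgeR adjusted P = 0.689). For IL-33 against IL-7 it was -0.12 (95% interval -0.55 to 0.32, edgeR adjusted P = 0.989). In the order of the 8 groups, WT CGRP, Pac1-/- CGRP, WT IL-7, WT IL-33, Pac1-/- IL-7, Pac1-/- IL-33, Pac1-/- NMU and WT NMU, neighbours overlapped except Pac1-/- CGRP with WT IL-7 and Pac1-/- NMU with WT NMU.

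**Figure D3:**
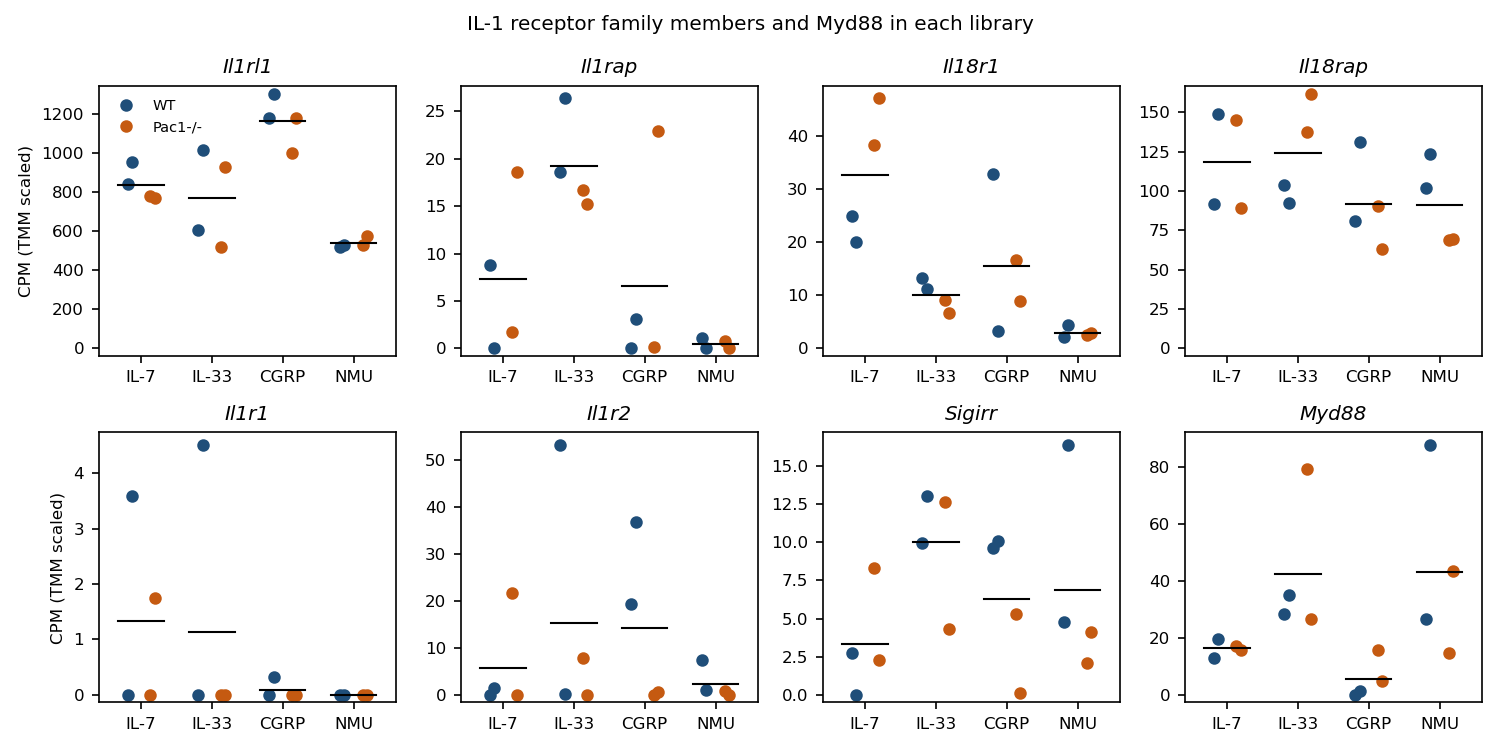
CPM of each of the 8 genes in each of the 16 libraries, WT in blue and Pac1-/- in orange, with a black line at the mean of the 4 libraries of a treatment. Il1rl1 libraries lie between 999.7 and 1304 CPM with CGRP and between 517 and 578 CPM with NMU, while Myd88 reaches at most 15.7 CPM with CGRP.

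The genes whose pattern was most like that of Il1rl1, by Pearson correlation of log2 CPM over the 16 libraries among the 4879 genes that averaged 20 CPM or more, were Rora (r = 0.940), Hes1 (r = 0.926), mt-Rnr1 (r = 0.911), mt-Rnr2 (r = 0.910) and Suco (r = 0.909). These points share libraries, treatments and scaling, so the values are a description. Rora encodes RORα, a transcription factor required for ILC2 development, and stood at 1720 ± 87.1 CPM with CGRP and 802 ± 52.3 CPM with NMU (SD, n = 4). Hes1, a transcription factor and a target of Notch signaling, stood at 165 ± 21.4 CPM with CGRP and 49.2 ± 12.2 CPM with NMU. The mitochondrial ribosomal RNAs moved in the same order as Il1rl1 across treatments, with mt-Rnr2 at 43457 ± 10241 CPM for CGRP, 29853 ± 4658 for IL-7, 17026 ± 9020 for IL-33 and 12245 ± 3876 for NMU, and their part in the difference in Il1rl1 was not tested. The summed markers of mast cells and basophils, which can also express ST2, ranged from 156 to 340 CPM with CGRP and from 112 to 159 CPM with NMU. Of these 8 markers 7 exceeded 3 counts somewhere, with Kit and Cpa3 in all 16 libraries, Hdc in 11 and Fcer1a in 6. Fcer1a and Hdc were highest in WT CGRP libraries, at 15.6 and 13.3 CPM, whereas Tpsb2 was at 0 and Ms4a2, Mcpt8 and Cma1 did not exceed 0.913 CPM in any library. The part of these cells in the difference in Il1rl1 was not tested.

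Il1rap, which completes the IL-33 receptor, was steadiest with IL-33. Its counts there were 250 and 263 in WT and 293 and 186 in Pac1-/- libraries, or 19.2 ± 4.96 CPM (SD, n = 4). In the NMU libraries the counts were 7 and 0 in WT and 8 and 0 in Pac1-/- ILC2s, all of them below every IL-33 library. The fitted log2 difference for NMU against IL-33 was -5.37 (SE 2.01, edgeR adjusted P = 0.644) and was not called. With IL-7 the counts ranged from 0 to 235 and with CGRP from 1 to 177, and in both treatments the replicates of either genotype disagreed. Without a filter on low counts the difference between NMU and IL-33 was called (-5.42, edgeR adjusted P = 0.0048).

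Il18r1, the IL-18 binding chain, was highest with IL-7 and lowest with NMU. With IL-7 its libraries stood at 24.9 and 19.9 CPM in WT and at 38.3 and 47.1 CPM in Pac1-/- ILC2s. With IL-33 they stood at 13.3 and 11.2 CPM in WT and at 9.11 and 6.69 CPM in Pac1-/- ILC2s. With NMU they stood at 2.16 and 4.34 CPM in WT and at 2.49 and 2.88 CPM in Pac1-/- ILC2s. The 4 libraries of these 3 treatments did not overlap one another. With CGRP the values were scattered, at 32.9 and 3.29 CPM in WT and 16.6 and 8.92 CPM in Pac1-/- ILC2s. By median, summed markers of T cells and of other ILCs and NK cells were also highest with IL-7. B cell markers were instead highest with CGRP, with a median of 174 CPM against 27.2 CPM with IL-7. T cell markers summed to 237 to 338 CPM in the IL-7 libraries and to at most 173 CPM in the other libraries. Of these 6 markers Cd3g and Cd3d reached 256 and 103 CPM and Cd3e reached 8.99 CPM. Cd4 and Cd5 did not pass 0.507 and 0.129 CPM, and Cd8a was at 0 in every library. The 8 markers of other ILCs and NK cells, 7 of which exceeded 3 counts somewhere, summed to 15.2 and 21.9 CPM in WT and to 53.7 and 55.1 CPM in Pac1-/- IL-7 libraries, with medians of 7.18 CPM for IL-33, 5.42 CPM for NMU and 3.42 CPM for CGRP. Among these 8 markers Tbx21 was at 0 in every library, and the highest value of any was 20.4 CPM for Gzmb. The part of cells with such markers in the values of Il18r1 was not tested.

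None of these differences in Il18r1 passed the test. The log2 difference was -1.65 for IL-33 against IL-7 (SE 0.648, edgeR adjusted P = 0.446) and -1.73 for NMU against IL-33 (SE 0.656, edgeR adjusted P = 0.652). For CGRP against NMU it was 2.36 (SE 0.669, edgeR adjusted P = 0.0597), and this difference was called by DESeq2 (adjusted P = 0.00347), which called 11.4% of all genes, and by edgeR with at least 10 counts required in every library (adjusted P = 0.0094) or without WT CGRP replicate 2 (2.78, adjusted P = 0.0107). For IL-33 against IL-7, 2 of the 8 genes had libraries that did not overlap, Il18r1 lower and Myd88 higher, where 5.24% of all genes did. For NMU against IL-33, 2 did, Il1rap and Il18r1, both lower, where 4.35% of all genes did.

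Il18rap, the IL-18 accessory chain, varied far less. Its means were 119 ± 32.7 CPM with IL-7, 124 ± 31.7 with IL-33, 91.4 ± 28.8 with CGRP and 90.8 ± 26.5 with NMU (SD, n = 4 each), and the libraries of any pair of treatments overlapped. Its log2 difference for IL-33 against IL-7 was 0.03, with a 95% interval of -0.52 to 0.59. The ratio of Il18rap to Il18r1, each per length, therefore followed Il18r1, with a median of 2.67 for IL-7, 8.33 for IL-33, 4.46 for CGRP and 20.04 for NMU over 4 libraries each. The ratios ranged from 1.35 to 5.33 with IL-7 and from 17.1 to 33.7 with NMU, and with CGRP they were scattered from 1.76 to 28.4. In IL-33 they ranged from 5.55 to 17.3, without overlap with IL-7 and with overlap with NMU.

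The IL-1 binding receptors and Sigirr were too low or too scattered for their differences to be read. Il1r1, the signaling receptor for IL-1, had 39 counts in a WT IL-7 library, 22 in a Pac1-/- IL-7 library, 45 in a WT IL-33 library and 3 in a WT CGRP library, and 0 in the other 12. A count of 0 allows up to 0.462 CPM in the shallowest library. Il1r2, the decoy receptor, had 716 and 1 counts in the WT IL-33 replicates and 248 and 0 in the Pac1-/- IL-7 replicates. With CGRP its counts were 218 and 337 in WT and 0 and 4 in Pac1-/- ILC2s. Sigirr averaged 3.33 ± 3.52 CPM with IL-7, 9.99 ± 4.01 with IL-33, 6.28 ± 4.64 with CGRP and 6.85 ± 6.45 with NMU (SD, n = 4 each). Sigirr was not called in any comparison, and its 95% interval for IL-33 against IL-7 ran from -0.81 to 4.54 on the log2 scale.

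Myd88, the adaptor of the signaling receptors for IL-33, IL-18 and IL-1, fell with CGRP. Its counts with CGRP were 0 and 12 in WT and 155 and 38 in Pac1-/- libraries, or 0, 1.32, 15.7 and 4.91 CPM. With IL-33 the WT libraries stood at 28.3 and 35.1 CPM and the Pac1-/- libraries at 79.3 and 26.7 CPM, all above every CGRP library. For CGRP against IL-33 it was the only one of the 8 genes without overlap, where 9.71% of all genes showed none. With NMU the values were 26.8 and 87.8 CPM in WT and 14.8 and 43.4 CPM in Pac1-/- ILC2s, the lowest of which lay below the highest CGRP library. With IL-7 they were 12.9 and 19.8 CPM in WT and 17.3 and 15.7 CPM in Pac1-/- ILC2s.

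The log2 difference in Myd88 was -3.98 for CGRP against IL-33 (SE 0.858, edgeR adjusted P = 0.0266) and -3.98 for CGRP against NMU (SE 0.858, edgeR adjusted P = 0.0167). Both calls were lost when edgeR was fitted on only the 8 libraries compared (adjusted P = 0.118 and 0.0815), and with at least 10 counts required in every library the gene was not tested. Within WT libraries alone the log2 differences were -5.61 against IL-33 (edgeR adjusted P = 0.194) and -6.47 against NMU (edgeR adjusted P = 0.0937), and within Pac1-/- libraries alone -2.35 (edgeR adjusted P = 0.361) and -1.49 (edgeR adjusted P = 0.452). Il1rl1 in CGRP against NMU was 1.25 in WT libraries alone (edgeR adjusted P = 0.0898) and 0.98 in Pac1-/- libraries alone (edgeR adjusted P = 0.196). For IL-33 against IL-7, Myd88 was higher in all 4 IL-33 libraries than in any IL-7 library, but the log2 difference of 1.32 was not called (SE 0.757, edgeR adjusted P = 0.606). Myd88 overlaps Acaa1a, on the opposite strand, by 1736 bases, and since the sources used here do not state whether counting used strand, reads from the shared stretch cannot be told apart. Acaa1a itself averaged 6.52 CPM with IL-7, 7.82 with IL-33, 2.35 with CGRP and 4.35 with NMU. Myd88 also lies within Slc22a14 on the same strand, which had 50 counts in all 16 libraries together.

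None of the 8 genes was called between Pac1-/- and WT ILC2s over all treatments, where 0.113% of all genes were called, and none had libraries without overlap between the genotypes, where 0.1% of all genes did. Il1rl1 differed by -0.12 on the log2 scale with a 95% interval of -0.43 to 0.19, with 8 libraries per genotype. Il18rap differed by -0.15 with a 95% interval of -0.54 to 0.24. Myd88 differed by 0.94 with a 95% interval of -0.23 to 2.11. The other genes had wider intervals.

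None of the 8 genes was called between the genotypes within a treatment either. The share of all genes called was 0.00668% in the IL-7 and the IL-33 libraries, 0.107% with CGRP and 0.02% with NMU. With 2 libraries against 2, the genes without overlap numbered 2 of 8 with IL-7, 3 with IL-33, 3 with CGRP and 4 with NMU, against 28.8%, 32.2%, 33.2% and 30.2% of all genes tested. Within CGRP, Myd88 was higher in both Pac1-/- libraries, with a log2 difference of 3.99 (SE 1.25, edgeR adjusted P = 0.403). This difference was called by DESeq2 (4.04, adjusted P = 0.0104), which called 2.16% of all genes, by edgeR without a filter on low counts (3.97, adjusted P = 0.0089) and by edgeR without WT CGRP replicate 2 (adjusted P = 0.0051), which leaves the WT group at 0 counts. Il1r2 was lower in both Pac1-/- CGRP libraries, with a fitted log2 difference of -6.76 (SE 3.54, edgeR adjusted P = 0.645), and was called without a filter on low counts (-6.79, edgeR adjusted P = 0.0295). B cell markers were high in those same 2 Pac1-/- CGRP libraries, and their part in these differences was not tested.

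The test of whether a treatment acted differently in the genotypes called none of the 8 genes and 0 of the 14979 genes in edgeR for IL-33, CGRP and NMU alike, a background of 0%. At an unadjusted P under 0.05 these tests held 726, 905 and 813 genes, and DESeq2 called 16, 88 and 17, or 0.107%, 0.587% and 0.113% of all genes. With no effect at all, a fraction of about 0.05 of the 14979 genes would pass the unadjusted cutoff. The counts for CGRP and NMU lay above that number and the count for IL-33 below it. Genes of the same libraries are not independent, so these counts alone do not decide whether there was an interaction. For the CGRP effect, Il1rl1 differed between Pac1-/- and WT by -0.03 on the log2 scale with a 95% interval of -0.90 to 0.84, and Myd88 by 3.25 with a 95% interval of -0.17 to 6.68 (edgeR adjusted P = 0.807). Without WT CGRP replicate 2 the value for Myd88 was called (9.09, edgeR adjusted P = 0.0335), with the remaining WT CGRP library at 0 counts, so its size depends on the prior count. For the NMU effect, Il18rap had a log2 difference of -1.31 (SE 0.516, edgeR adjusted P = 0.912), from 104 and 92.5 CPM with IL-33 to 102 and 123 CPM with NMU in WT, and from 138 and 162 CPM to 69.1 and 69.2 CPM in Pac1-/- ILC2s.

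Signaling genes downstream of these receptors were called only in the comparisons with CGRP, among the 4 comparisons between treatments. Of 23 listed TIR adaptors and genes of the MyD88, IRAK, TRAF6 and TAK1 route, 20 were tested, and for CGRP against IL-33 1 was higher, Map3k8, and 1 lower, Ikbkg. Of 11 listed inhibitors of this signaling, all 11 were tested, and 2 were higher, Nfkbia and Tnfaip3, with none lower. In this comparison 2.76% of all genes tested were called. The median log2 difference was -0.21 for the first list and -0.36 for the second, beside -0.09 for all genes tested. For CGRP against NMU the same 4 genes were called in the same directions, where 5.47% of all genes were called, with medians of 0.02 and 0.56 beside 0.02 for all genes.

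Map3k8, the kinase TPL2 that links NF-κB signaling to ERK, stood at 533 and 389 CPM in WT and 384 and 510.3 CPM in Pac1-/- CGRP libraries. Its highest value in the other 12 libraries was 115 CPM. It was higher with CGRP than with IL-33 by 2.43 on the log2 scale (SE 0.252, edgeR adjusted P = 0.000188) and than with NMU by 2.27 (SE 0.251, edgeR adjusted P = 0.000228). Nfkbia, which encodes the NF-κB inhibitor IκBα, averaged 2299 ± 654 CPM with CGRP, 947 ± 234 with IL-33 and 873 ± 182 with NMU (SD, n = 4 each). Its log2 difference was 1.25 against IL-33 (edgeR adjusted P = 0.00659) and 1.36 against NMU (edgeR adjusted P = 0.00201). Tnfaip3, which encodes A20, a ubiquitin-editing inhibitor of NF-κB signaling, averaged 709 ± 97.7 CPM with CGRP, 328 ± 85.9 with IL-33 and 212 ± 33.6 with NMU. Its log2 difference was 1.12 against IL-33 (edgeR adjusted P = 0.0073) and 1.74 against NMU (edgeR adjusted P = 0.000248). The CGRP libraries of all 3 genes lay above every other library, but the genes were named because they were called in these comparisons. Of all genes tested, 9.71% had no overlap for CGRP against IL-33 and 13.3% for CGRP against NMU. The share of genes with CGRP above every other library was not computed.

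**Figure D4:**
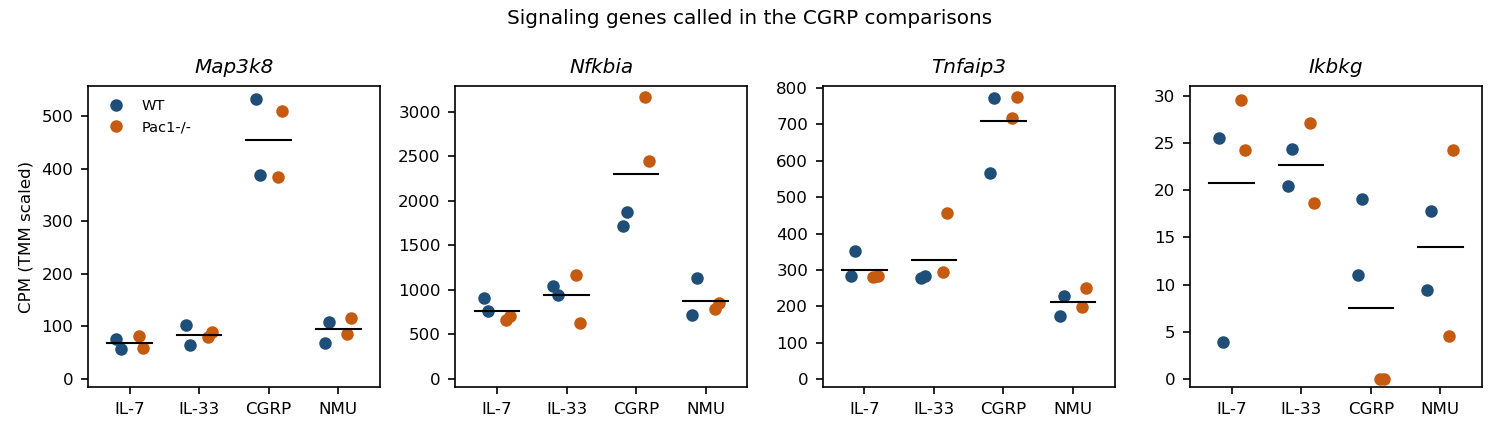
CPM of the 4 signaling genes called in the comparisons with CGRP, in each of the 16 libraries, WT in blue and Pac1-/- in orange, with a black line at the mean of the 4 libraries of a treatment. The CGRP libraries of Map3k8, Nfkbia and Tnfaip3 lie above those of every other treatment, while the 2 Pac1-/- CGRP libraries of Ikbkg are at 0. Of all genes tested, 9.71% had no overlap for CGRP against IL-33 and 13.3% for CGRP against NMU.

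Ikbkg, which encodes the NF-κB regulator NEMO, was lower with CGRP through the Pac1-/- libraries. Its counts with CGRP were 124 and 174 in WT and 0 and 0 in Pac1-/- ILC2s, against 229 to 477 with IL-33. It was called for CGRP against IL-33 (edgeR adjusted P = 0.00974) and against NMU (edgeR adjusted P = 0.012), but the size of the fitted difference depends on the prior count because a whole group was at 0. Within WT libraries alone it was not called (-0.56 on the log2 scale against IL-33, edgeR adjusted P = 0.885). Ikbkg was also not called by edgeR between Pac1-/- and WT with CGRP, nor in the interaction of genotype with CGRP. A difference between the genotypes in Ikbkg was thus not established.

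The receptor proximal kinases were present in every library and were not called in any comparison. Irak1 averaged 42.9 ± 17.5 CPM with IL-7, 26.1 ± 8.87 with IL-33, 19.3 ± 9.27 with CGRP and 19.9 ± 5.02 with NMU (SD, n = 4 each). Irak4 averaged 13.0 ± 12.0, 22.4 ± 3.82, 21.8 ± 24.0 and 16.4 ± 5.67 CPM in the same order, and the ubiquitin ligase Traf6 25.04 ± 15.9, 29.1 ± 11.4, 19.99 ± 15.7 and 28.7 ± 10.4 CPM. The ligands were close to absent. Of 11 listed IL-1 family ligands and soluble inhibitors 3 passed the filter, and none was called. Il33 was at 0 counts in all 4 IL-33 libraries and did not exceed 2.93 CPM in any library, and Il18 did not exceed 6.18 CPM. Of the 3 other receptors listed 1 passed the filter, Il1rl2, with means between 0.918 and 1.72 CPM in the 4 treatments.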

How the data were processed

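Raw counts per gene for 16 bulk libraries were deposited by the authors, who aligned paired-end reads to mm10 with HISAT2; the counting tool and its use of strand are not given in the sources used here. The counts were analysed as deposited, after amplification without molecular identifiers, so limits from counts cover counting error only. Gene models came from GENCODE M21 (GRCm38), which named 51633 of 51912 genes, and promoters from RefSeq. edgeR 4.0.16 (R 4.3.3) was fitted once to 8 groups of genotype and treatment, with TMM scaling and filterByExpr, which left 14979 genes. The quasi-likelihood test was 2-sided, and a gene was called at a fold change over 1.5 and a Benjamini-Hochberg adjusted P under 0.05. DESeq2 1.42.0 was an alternative, with other scalings, filters, fits and each library left out. The test was also run on simulated counts in which genes with low average counts were left unchanged. That run does not show how well changes in such genes are found. The study's own test was DESeq2. CPM used TMM-scaled totals (median total 11071278 counts). The genes described, the lists and the rules for named genes (all 8 genes, up to 4 called genes per list by smallest P, the 5 genes most like Il1rl1) were chosen with earlier results of these data known. Kinases, ligands and marker genes named without a call were chosen after their values were seen.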

Additional observations from a re-analysis of the deposited data

How the results depend on the processing

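The call of Il1rl1 for CGRP against NMU held in every alternative that used both genotypes, with log2 differences of 1.04 to 1.17 and edgeR adjusted P values of 0.000167 to 0.00655 when any 1 library was omitted. The calls of Myd88 held when any 1 library was omitted (edgeR adjusted P of at most 0.0212 against IL-33 and 0.0168 against NMU) but not on only the libraries compared or within a genotype. The scatter of low counts between replicates limits Il1rap, Il1r1, Il1r2 and Sigirr. With a single library left in a group, its spread is assumed to equal that of the others. Fits of 1 genotype and scaling by total count were chosen after seeing the data. Except where a value shows it, the cause of each change was not tested.

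The numbers of the 8 genes called were otherwise as reported, except for CGRP against IL-33 (2 with DESeq2, 0 with at least 10 counts in every library, 0 on only the libraries compared, 0 within WT and 0 within Pac1-/- libraries, 1 to 2 with a library left out), for CGRP against NMU (3 with DESeq2, 1 on only the libraries compared, 0 within either genotype, 2 to 3 with a library left out), for NMU against IL-33 (1 without a filter), for Pac1-/- against WT with CGRP (1 with DESeq2, 2 without a filter, 0 to 1 with a library left out) and for the interaction with CGRP (0 to 1 with a library left out).

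Of all genes, DESeq2 called 231 for IL-33 against IL-7, 1164 for CGRP against IL-33, 189 for NMU against IL-33, 1713 for CGRP against NMU, 122 for Pac1-/- against WT over all treatments, 54, 24, 323 and 32 within IL-7, IL-33, CGRP and NMU, and 16, 88 and 17 for the interactions with IL-33, CGRP and NMU. Without a filter edgeR called, in the same order, 199, 845, 116, 1318, 117, 21, 26, 183, 39, 21, 70 and 53. On only the libraries compared, edgeR called 10 genes for IL-33 against IL-7, 199 for CGRP against IL-33, 14 for NMU against IL-33, 525 for CGRP against NMU and 0 for Pac1-/- against WT with CGRP. Within WT libraries the 4 comparisons between treatments held 0, 18, 0 and 69 calls and within Pac1-/- libraries 0, 55, 7 and 101. With at least 10 counts in every library edgeR called 53 for NMU against IL-33 and 2 for Pac1-/- against WT with CGRP. For Pac1-/- against WT with NMU edgeR called 3 genes as reported, 5 with DESeq2's size factors and 6 with scaling by total count.

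With 1 library omitted at a time, calls ranged from 5 to 66 for IL-33 against IL-7, 281 to 851 for CGRP against IL-33, 31 to 72 for NMU against IL-33, 669 to 1238 for CGRP against NMU and 17 to 103 for Pac1-/- against WT over all treatments. They ranged from 1 to 18, 2 to 6, 40 to 237 and 5 to 13 within IL-7, IL-33, CGRP and NMU, and from 0 to 6, 1 to 126 and 1 to 5 for the interactions with IL-33, CGRP and NMU.

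Values near 0 changed sign. Il1rl1 for IL-33 against IL-7 was 0.081 with scaling by total count and ranged from -0.39 to 0.048 with a library left out, and its interaction with CGRP ranged from -0.45 to 0.42. Ikbkg for CGRP against NMU was 0.14 within WT libraries. Per length of the longest transcript, Il1rap averaged 1.85 and Il18rap 21.7 CPM per kilobase. Scaling by total count moved the median gene to 0.31 for IL-33 against IL-7, from 0.12 with TMM, and to -0.38 for CGRP against IL-33, from -0.14.

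The correlation of deviations between libraries of the same replicate number lay between -0.0641 and 0.0390 over all pairs of groups. No strong shift shared by replicate number was thus seen, but scatter between replicates can hide a shared mouse, culture or day. With the replicate number as a block, edgeR called 2 genes for IL-33 against IL-7 and 10 for Pac1-/- against WT with CGRP, Il1rl1 for CGRP against NMU was 1.11 (adjusted P = 0.00337) and no call among the 8 genes changed.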
